A study of Rattus norvegicus with 8 samples.

Results

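Of the 758 rat miRNAs on the array, 6 belonged by name to 2 families with related seeds, that of miR-130 with miR-301 and that of miR-148 with miR-152, namely the 3p strands of miR-130a, miR-130b, miR-301a, miR-301b, miR-148b and miR-152. Of these 6 members, 3 were detected on all 8 arrays (rno-miR-130a-3p, rno-miR-301a-3p and rno-miR-152-3p) and 3 on no array (rno-miR-130b-3p, rno-miR-301b-3p and rno-miR-148b-3p). Of all 758 rat miRNAs, 122 were detected on all 8 arrays and 573 (75.6%) on no array, so lack of detection was common on this array. Each family was represented in this tissue by signal from only some of its members, and the 3 detected members were the ones that could be tested. Measured against the rest of its array, 0 of these 3 members passed the test between the groups (limma adjusted p), which 30.5% of all 151 tested miRNAs passed.

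The samples were prostatic urethral tissue of male Sprague Dawley (SD) rats, 10 to 12 months old, taken on day 5 after the operation. TULP stands for a simulated transurethral laser prostatectomy, in which a thulium laser vaporized the lining of the prostatic urethra through an opened bladder. The sham group had an incision of the abdomen and no laser treatment, and its tissue came from the same site. Each group had 4 rats with 1 array each, and groups follow the sample titles, because the descriptions of the TULP samples name sham surgery although their titles, source names and treatment fields name trauma. The tissue was taken whole, so fewer cells of a type and less of a miRNA per cell cannot be told apart.

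A miRNA guides a silencing complex to messenger RNAs that pair with its seed, the bases near its 5′ end. The miR-130 and miR-301 family is known for repressing PPARG and regulators of TGF-beta signalling, and miR-130a for a role in the growth of blood vessels. The miR-148 and miR-152 family is known for repressing DNMT1, a DNA methyltransferase.

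The mature sequences are shown because the seeds of the families overlap. They are RefSeq sequences on build GRCr8, printed 5′ to 3′ with the seed, bases 2 to 8, in capitals. A sequence was matched for 5 of the 6 members, all but rno-miR-301a-3p, and miR-148a-3p is added as the remaining miRNA of the array with the miR-148 and miR-152 seed.
rno-miR-130a-3p: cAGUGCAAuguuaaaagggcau
rno-miR-130b-3p: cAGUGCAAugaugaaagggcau
rno-miR-301b-3p: cAGUGCAAugguauugucaaagc
rno-miR-148b-3p: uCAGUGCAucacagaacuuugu
rno-miR-152-3p: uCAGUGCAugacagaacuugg
rno-miR-148a-3p: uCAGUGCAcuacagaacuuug
The miR-130 and miR-301 seed, AGUGCAA, was held by 3 miRNAs of the reference table, and the miR-148 and miR-152 seed, CAGUGCA, by 3 others. Both seeds hold the run AGUGCA, shifted by a single base. Members of a family differ in the bases behind the seed. Of the 685 array miRNAs with a sequence in the table, 12 (1.75%) held GUGCA within bases 1 to 9.

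On GRCr8, mature miR-130a-3p lies at chr3:90229240-90229261 on the minus strand, and its gene, Mir130a, lies within no other annotated gene. Mature miR-152-3p lies at chr10:82329435-82329455 on the plus strand, within the bounds of Copz2. Mature miR-148b-3p lies at chr7:136299930-136299951 on the plus strand, within the bounds of Copz1. Copz2 and Copz1 encode related subunits of the COPI coat of transport vesicles. Mir301b and Mir130b lie 269 bases apart on chromosome 11 within 2610318N02Rikl, and neither of their 3p strands was detected. Mir301a lies on chromosome 10 within the bounds of both Ska2 and Prr11. The introns and exons of these genes were not analysed here.

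The members were read by 14 probes, of which 4 passed the detection limit on every array and 10 on none. A probe counted as detected when its total signal, an intensity in arbitrary units, exceeded 3 times its error. Both probes of miR-130a-3p were detected on all 8 arrays, with totals of 7.32 to 9.78 times their error. All of its 128 spot readings, 16 per array, were well above background. For miR-152-3p, a single probe of the pair was detected on all 8 arrays, and 54 of 128 spot readings of the pair were well above background. miR-301a-3p had the same pattern, with its 21-base probe detected on 8 arrays, its 20-base probe on 0, and 41 of 128 spot readings well above background.

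The probes of miR-130a-3p and miR-152-3p are printed because probes that differ by a single base gave different signal. They are DNA, 5′ to 3′, as in the deposited files, with the base that only the longer probe holds in capitals.
miR-130a-3p, 18 bases: atgcccttttaacattgc
miR-130a-3p, 19 bases: atgcccttttaacattgcA
miR-152-3p, 15 bases: ccaagttctgtcatg
miR-152-3p, 16 bases: ccaagttctgtcatgC
The miR-130a-3p probes pair with bases 5 to 22 and 4 to 22 of the miRNA, and the miR-152-3p probes with bases 7 to 21 and 6 to 21. On each array, the longer miR-130a-3p probe gave 1.88 to 2.03 times the signal of the shorter one. The 16-base miR-152-3p probe totalled 6.93 to 15.1, while the 15-base probe was below zero on all 8 arrays, between -2.19 and -0.45. The signal of miR-152-3p therefore rested on 1 probe, as did that of miR-301a-3p. Aligned without gaps, the closest of the other family sequences differed from the targets of the miR-130a-3p probes at 2 bases (miR-130b-3p) and from those of the miR-152-3p probes at 2 bases (miR-148b-3p).

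The 3 undetected members stayed below the limit in both groups. The totals of the miR-130b-3p probes lay between -2.20 and 1.93, against limits of 3.37 to 4.24. For miR-148b-3p the totals were 0.14 to 2.79 against limits of 3.38 to 4.33, at most 1.93 times the error. The 4 probes of miR-301b-3p, with fewer spots each, gave -0.94 to 0.24 against limits of 1.68 to 2.13. These 3 members have only such a bound in each group, so no fold change is given for them.

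**Figure D1:**
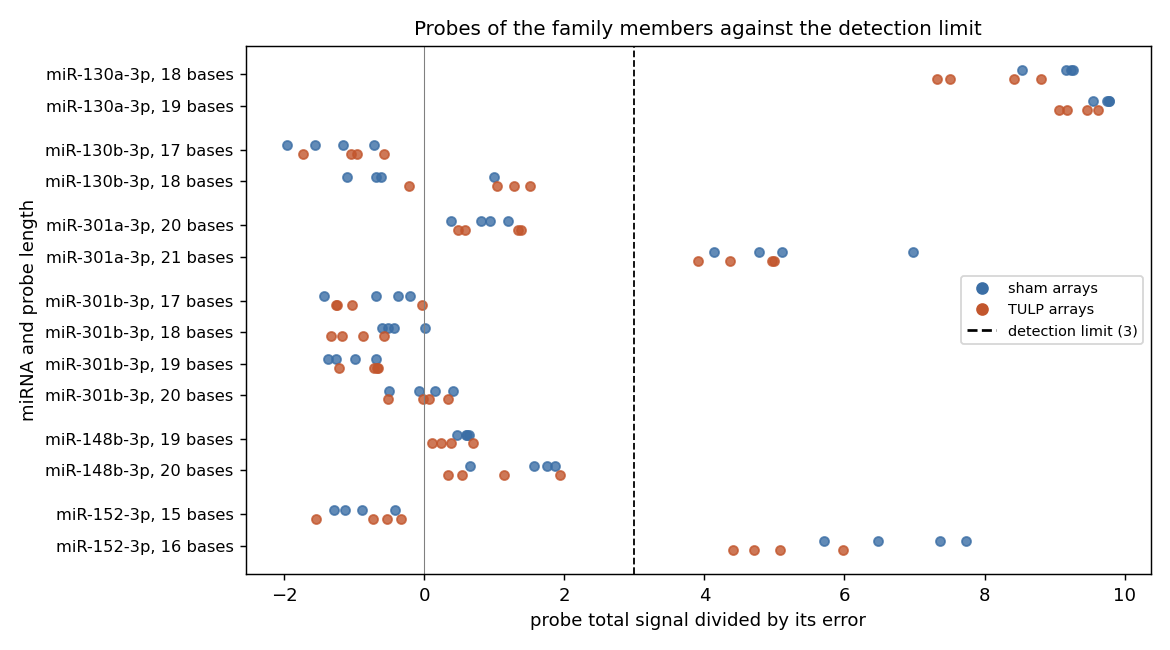
Total signal of each of the 14 probes divided by its error (x axis, no unit), for each miRNA and probe length (y axis), with 1 point per array, sham in blue and TULP in orange. The dashed line is the detection limit of 3, and all points of 4 probes lie to its right while all points of the other 10 lie to its left.

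The other strands of the 6 members, their 5p strands, were on the array too, and 0 of 6 were detected on any array. Beside this, 75.6% of all rat miRNAs were detected on no array. Of 7 further miRNAs with GUGCA within bases 1 to 9, 1 was detected, rno-miR-19b-3p, which has 2 positions on GRCr8, on all 8 arrays. Its level was 4.29 ± 0.40 in sham and 4.91 ± 0.40 in TULP (mean of log2 normalized signal ± SD, n = 4), higher by 0.62 (SE 0.27), which did not pass (adjusted p = 0.116 by limma). miR-148a-3p, miR-18a-5p, miR-19a-3p, miR-33-5p, miR-143-5p and miR-291b were detected on no array.

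Before normalization, the signal of miR-130a-3p was 55.2, 88.0, 81.9 and 89.6 on sham replicates 1 to 4 and 48.8, 70.5, 43.5 and 57.2 on TULP replicates 1 to 4. The TULP arrays lay lower on the whole, but the ranges overlapped, with TULP replicates 2 and 4 above sham replicate 1. For miR-152-3p, the signal was 7.82, 11.1, 12.6 and 15.1 in the sham rats and 6.93, 9.69, 7.15 and 7.44 in the TULP rats, with TULP replicate 2 above sham replicate 1. That overlap depended on summing the detected probes. The totals stored in the files for miR-152-3p were 80.5, 127, 115 and 153 in sham and 75.6, 61.4, 72.2 and 74.0 in TULP. On those totals no TULP array lay above a sham array, and TULP replicate 2 was the lowest. These totals are not normalized either, and the unnormalized sums of all 151 tested miRNAs had a median log2 change of -0.55. The share of all miRNAs with such a separation on stored totals was not counted, so it is not read as particular to miR-152-3p. For miR-301a-3p, the signal was 5.12, 7.14, 11.2 and 7.36 in the sham rats and 6.02, 7.50, 7.64 and 6.12 in the TULP rats. Its TULP values lay inside the sham range. On the log2 scale, the differences between the group means were -0.51 for miR-130a-3p, -0.55 for miR-152-3p and -0.13 for miR-301a-3p.

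The summed signal of all detected miRNAs was 14.75 ± 0.35 on the log2 scale in sham and 14.12 ± 0.09 in TULP (SD, n = 4), a difference of -0.64 (exact permutation test, two-sided, p = 0.0286, the lowest value that 70 labellings allow). The labelling spike-ins, RNAs that went into each labelling reaction in a set amount, were not dimmer in TULP, at 8.32 ± 0.28 in sham and 8.55 ± 0.08 in TULP on the log2 scale (SD, n = 4). Without normalization, the median change of the 151 tested miRNAs was -0.55. Quantile normalization, which the study's methods name, gives each array the same distribution of values, so a change given after it is one against the rest of the array.

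After normalization, the log2 levels of miR-130a-3p were 5.89, 6.30, 6.09 and 5.89 in the sham rats and 5.74, 6.50, 5.89 and 6.35 in the TULP rats. Both the lowest and the highest value were TULP arrays. The means were 6.04 ± 0.19 and 6.12 ± 0.36 (SD, n = 4), the TULP mean being higher by 0.076, with SE 0.20 and a 95% interval of -0.38 to 0.54 (limma adjusted p = 0.862). As a fold of TULP over sham, this was 1.05, with an interval of 0.767 to 1.45.

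For miR-301a-3p, the log2 levels were 2.11, 2.76, 3.42 and 2.60 in the sham rats and 2.82, 3.12, 3.19 and 2.76 in the TULP rats. The sham arrays held both extremes, replicate 1 the lowest and replicate 3 the highest. The means were 2.72 ± 0.54 in sham and 2.97 ± 0.21 in TULP (SD, n = 4), the TULP mean being higher by 0.24, with SE 0.27 and a 95% interval of -0.39 to 0.88 (limma adjusted p = 0.590). The fold was 1.18, with an interval of 0.764 to 1.84. Without sham replicate 1 the difference was 0.037, and without sham replicate 3 it was 0.47.

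For miR-152-3p, the log2 levels were 2.72, 3.39, 3.52 and 3.44 in the sham rats and 2.93, 3.52, 3.09 and 3.16 in the TULP rats. Sham replicate 1 lay below all other arrays, and the other 3 sham arrays lay above 3 of the 4 TULP arrays. The means were 3.27 ± 0.37 in sham and 3.18 ± 0.25 in TULP (SD, n = 4), a TULP minus sham difference of -0.093, with SE 0.21 and a 95% interval of -0.59 to 0.40 (limma adjusted p = 0.848). The fold was 0.938, with an interval of 0.666 to 1.32, and without sham replicate 1 the difference was -0.28. The negative control spots of sham replicate 1 had an SD of 42.4, against 2.14 to 2.49 on the others, but a 95th percentile of 5.84, the lowest of the 8 arrays, so the SD came from few extreme spots. The part of these in the low values was not tested.

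**Figure D2:**
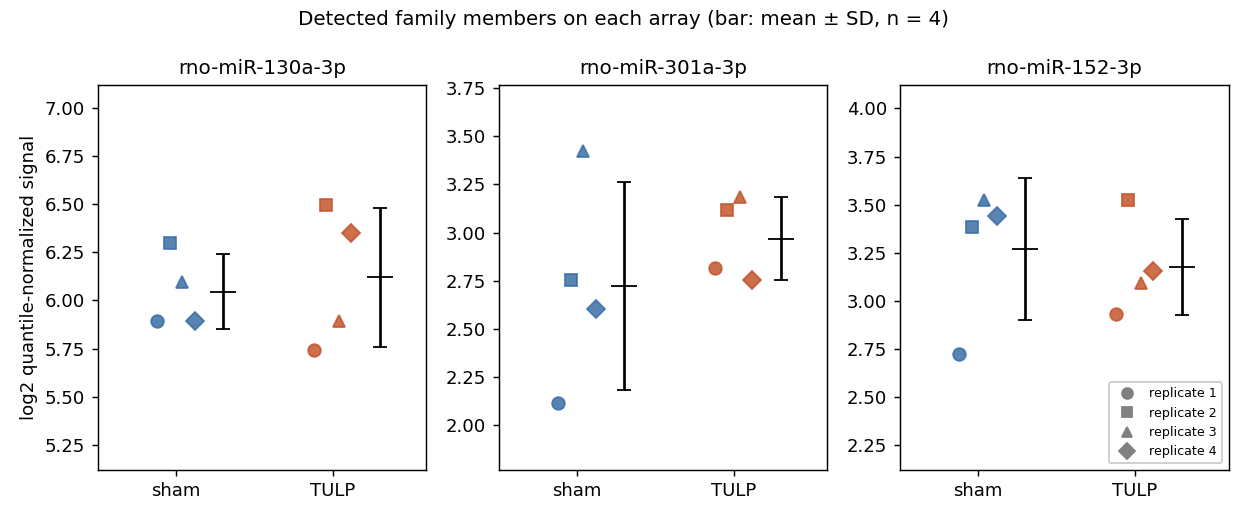
Log2 quantile-normalized signal (y axis) of the 3 detected members on the 4 sham arrays (blue) and 4 TULP arrays (orange), with a marker shape for each replicate number and the mean ± SD beside the points; each panel spans 2 log2 units. The groups overlap in every panel, and the widest spread is that of miR-301a-3p in sham (SD 0.54).

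The count of 0 members past the adjusted p, beside 30.5% of all tested miRNAs, was also 0 at an unadjusted p under 0.05, which 43% of all tested miRNAs had. By the methods' t-test with adjustment it was 0 as well, beside 26.5%. With the added demand of more than a 2-fold change, 9.27% of all tested miRNAs were called and again 0 members. Groups without overlap were found for 0 members and for 29.1% of all tested miRNAs. The median size of change, whatever its direction, was 0.093 for the 3 members and 0.42 for all tested miRNAs on the log2 scale. With this processing, each of the 95% intervals ended short of a 2-fold change in either direction. With other processing some did not. The interval of miR-301a-3p reached 1.68 (log2) where the totals stored in the files replaced the sums for all miRNAs. Its own totals were the same either way. Those of miR-130a-3p and miR-152-3p reached -1.27 and -1.29 with the spike-ins (log2). With 3 members tested, these counts describe the members and do not set the families apart.

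Whether the family members with the same seed moved differently was tested for 1 pair, miR-301a-3p and miR-130a-3p. The change of miR-301a-3p exceeded that of miR-130a-3p by 0.17 on the log2 scale. Its 95% interval, taken from a t distribution with the SD pooled over groups, was -0.60 to 0.94. The test was by permutation (two-sided exact permutation p = 0.657 over 70 labellings, and with 1 pair the adjusted p is the same). In the miR-148 and miR-152 family a single member was detected, so no pair could be compared.

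The scaling mattered for the direction of miR-130a-3p and miR-301a-3p and for the calls of miR-130a-3p and miR-152-3p. With arrays scaled to the labelling spike-ins, miR-130a-3p was lower in TULP by a log2 difference of -0.74 (SE 0.24, limma adjusted p = 0.0209) and miR-152-3p by -0.78 (SE 0.22, limma adjusted p = 0.0134). miR-301a-3p differed by -0.36 (SE 0.29, limma adjusted p = 0.308). On that scale the median of all 151 tested miRNAs shifted by -0.78 and 57.6% of them passed, against 2 of the 3 members. Thus the changes of miR-130a-3p and miR-152-3p on that scale lay close to the median change of the tested miRNAs. With these spike-ins, each sham array had a higher miR-152-3p level, from 3.24 to 4.05, than any TULP array, from 2.60 to 3.17. For miR-130a-3p, the sham arrays spanned 6.06 to 6.75 and the TULP arrays 5.29 to 6.03, again without overlap. Groups without overlap were found for 52.3% of all tested miRNAs on this scale.

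**Figure D3:**
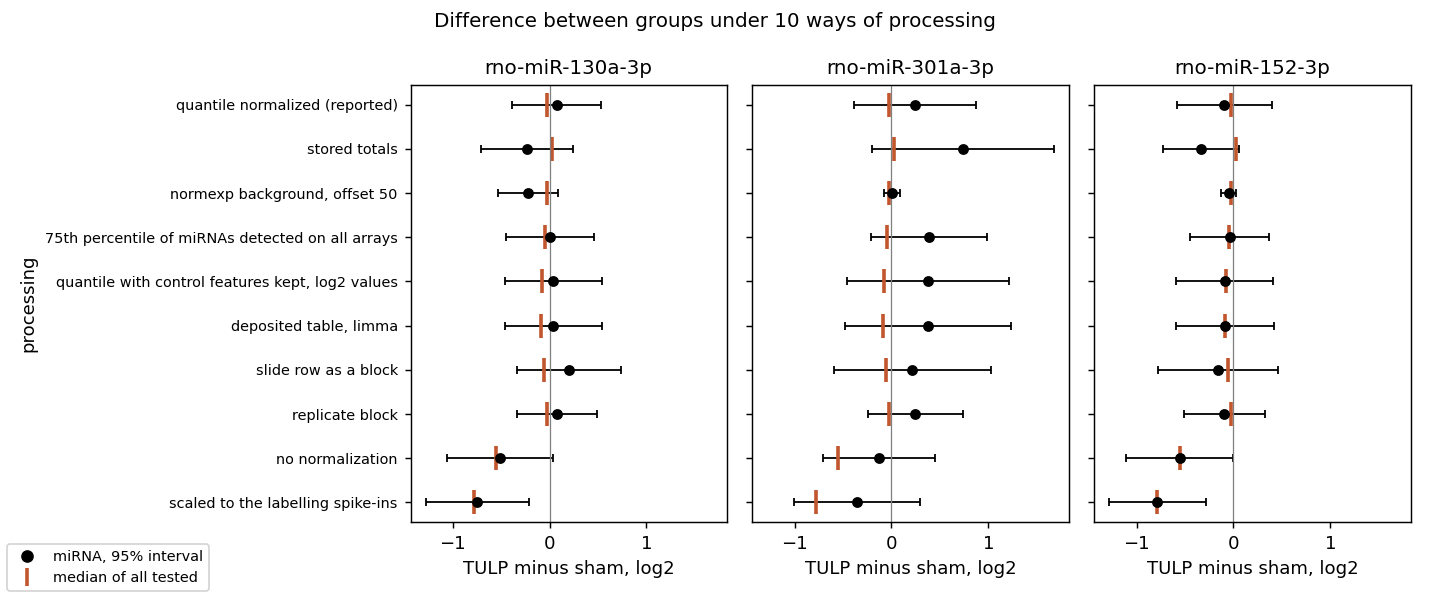
Difference between the TULP and sham groups (x axis, log2) for the 3 detected members under 10 ways of processing (y axis), with points for the fitted difference, bars for its 95% interval and orange ticks for the median change of all tested miRNAs. All 3 members shift left together with the median where arrays are not normalized or are scaled to the spike-ins. With the spike-ins, miR-130a-3p and miR-152-3p reach -0.74 and -0.78, and miR-301a-3p reaches -0.36.

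The arrays lay on 1 slide in a pair of rows, which held unequal numbers of each group. Within the first row, with 1 sham and 3 TULP arrays, the differences were 0.15 for miR-130a-3p, 0.43 for miR-301a-3p and -0.26 for miR-152-3p. Within the other row, with 3 sham arrays and 1 TULP array, they were 0.26, -0.0077 and -0.054 in the same order. The larger difference of miR-301a-3p was that in the first row, and in each row a single array stood for 1 of the groups.

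The miRNAs whose normalized levels followed each member most closely over the 8 arrays are given as a description, since all values share arrays and normalization. For miR-130a-3p they were miR-532-5p (Pearson r = 0.854), miR-193a-3p (0.797) and miR-542-5p (0.779). Of these, miR-532-5p was detected on 5 arrays and miR-542-5p on 6, and their other values are the floor, while the other miRNAs named here were detected on all 8. For miR-152-3p they were miR-324-5p (0.935), miR-193a-3p (0.883) and miR-542-5p (0.867). For miR-301a-3p they were miR-106b-5p (0.832), miR-19b-3p (0.780) and miR-193a-3p (0.679). Among the members themselves, r was 0.573 between miR-130a-3p and miR-152-3p, 0.629 between miR-152-3p and miR-301a-3p, and 0.269 between miR-130a-3p and miR-301a-3p.

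Marker miRNAs of several cell types were detected, as a check of the tissue. Of 8 epithelial markers (the miR-200 family, miR-205 and others) 8 were detected on at least 1 array, as were both smooth muscle markers, miR-143-3p and miR-145-5p, and 4 of 5 striated muscle markers. Of the 5 tested leukocyte markers, 2 were higher in TULP and 0 lower at the adjusted p. Among all tested miRNAs, 13.9% were higher and 16.6% lower. The summed normalized signal of the leukocyte markers was 54.8 to 78.0 in sham and 96.5 to 168 in TULP. Among them, miR-150-5p went the other way, by a log2 difference of -0.59 that did not pass (limma adjusted p = 0.0737). Of the 4 tested striated muscle markers, 0 were higher and 3 lower, with sums of 4043 to 5659 in sham and 2639 to 4637 in TULP. Of 7 tested epithelial markers, 0 passed, with a median change of -0.68, and miR-375-3p was detected on 4 sham arrays and 1 TULP array. Of 2 tested erythroid markers, 1 was lower, miR-486 by a log2 difference of -0.79 (limma adjusted p = 0.0498), with a median change of -0.73. Of the tested smooth muscle and endothelial markers, 0 passed. The part of these marker differences in the levels of the family members was not tested. Between 136 and 156 miRNAs were detected per array.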

How the data were processed

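Total RNA was extracted with the mirVana kit, labelled with Cy3 and hybridized to an Agilent rat miRNA array, 1 array per rat. The deposited scanner files were made by the authors with Agilent Feature Extraction 10.7.1.1 and hold background-subtracted intensity on a linear scale, not normalized between arrays. The deposited table holds log2 values that the authors quantile normalized. Other deposited columns give detection calls.

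The signal of a miRNA was the sum of its probes whose total exceeded 3 times the error, and 0.1 where none did. It matched the detection calls of the files with 0 mismatches. The total stored in the files was used as an alternative, since for miR-152-3p it was 6.33 to 11.4 times this sum. For miR-130a-3p and miR-301a-3p it equalled this sum on every array, within rounding. Signals were quantile normalized over 758 miRNAs, raised to a floor of 1.94 (the median over arrays of the lowest detected value) and log2 transformed. limma 3.58.1 in R 4.3.3 was fitted to the 151 miRNAs detected on at least 4 arrays, with group as the single term and Benjamini-Hochberg adjustment over all of them. The script was tested on simulated data. Exact permutation over arrays was the test for the pair of members and for the summed signal. Other signals, scalings, filters, floors, blocks and the methods' t-test were run as alternatives, as was leaving out each array.

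The miRNAs named were the members, their other strands, relatives with GUGCA in bases 1 to 9 and, for each tested member, the 3 tested miRNAs that correlated best. The members, lists and tests were chosen with earlier results of these data known. The number of arrays limits the precision. Probe positions in the files are on rn4 and were not used. Mature sequences and gene bounds are from RefSeq tables on GRCr8.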

Additional observations from a re-analysis of the deposited data

How the results depend on the processing

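The direction of miR-130a-3p, near zero as reported, depended on the processing. Its log2 difference was -0.23 with the totals stored in the files, -0.22 with the normexp background, -0.51 without normalization or scaled to the 75th percentile of all miRNAs (the same value on every array, since most are undetected), and -0.74 scaled to the labelling spike-ins. For miR-301a-3p, it was -0.13 without normalization or with that percentile, and -0.36 with the spike-ins, but 0.74 with the stored totals (95% interval -0.20 to 1.68), 0.38 with the deposited table and 0.39 scaled to the 75th percentile of the miRNAs detected on all arrays. Its interval passed a 2-fold change with the stored totals, with the deposited table (1.23), with the control features kept (1.21), with the slide row as a block (1.02), with the spike-ins (-1.01) and without sham replicate 2 (1.01) or TULP replicate 4 (1.1). Those of miR-130a-3p and miR-152-3p did so without normalization or with the 75th percentile of all miRNAs (-1.06 and -1.11) and with the spike-ins. miR-152-3p was lower in TULP under all 24 alternatives (-0.33 with the stored totals) and passed the adjusted p under the spike-ins alone, at -0.78. The number of members past the adjusted p was then 2, and 0 under the other 23 alternatives. Leaving out 1 array gave -0.051 to 0.21 for miR-130a-3p, -0.28 to -0.0086 for miR-152-3p, 0.037 to 0.47 for miR-301a-3p and 0 to 0 members past the adjusted p. miR-130a-3p turned negative without TULP replicate 2 (-0.051) or TULP replicate 4 (-0.0028). With the stored totals, the signals of miR-130a-3p and miR-301a-3p before normalization were unchanged, within rounding. Their differences there moved through normalization and floor, which draw on all miRNAs. The cause of the other shifts was not tested.

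With the replicate block, the differences were 0.076, -0.093 and 0.24 for miR-130a-3p, miR-152-3p and miR-301a-3p, 0 members passed and 37 of all tested miRNAs did, against 46 without it. Sham and TULP samples with the same number correlated at -0.10 to 0.27 in their deviations from the group means. Those with different numbers correlated at -0.39 to 0.32, and animals with the same number share only that number. Of all tested miRNAs, 28 passed with the stored totals or the slide row as a block and 87 with the spike-ins; leaving out 1 array gave 28 to 57. Signal over background limits the undetected members, and 4 arrays per group limit the rest.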
